A study of Mus musculus with 3 samples.

Results

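Chromatin accessibility was described at the 9 mouse genes of the Slit ligands (Slit1, Slit2 and Slit3), their Robo receptors (Robo1, Robo2 and Robo3) and the srGAP proteins (Srgap1, Srgap2 and Srgap3). ATAC-seq, which uses a transposase to tag accessible DNA, had been run on FACS-sorted cells labelled as brain tissue, 50000 viable cells for each biological replicate. CPN 1 and CPN 2 were 2 libraries of callosal projection neurons, which connect the hemispheres, and CSMN was 1 library of corticospinal motor neurons, which project to the spinal cord. The age, strain, sex and genotype of the mice, the sort markers and the number of animals behind a library are not given in the sources used here, and no treatment is labelled in any group. The series asks how projection identity is set in cortical neurons, and its deposited lists allow a comparison of open regions between the classes of neuron.

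All peaks of the 3 lists that lay in a gene body or within 10 kb of it were used, with positions on mm10. Peaks that overlapped by at least 1 bp were merged into a region, and the class of a region says which libraries contributed a peak. The 9 genes held 511 regions of 204313 in all, of which 341 had a peak in CPN 1, 377 in CPN 2 and 242 in CSMN. The strength of a peak is the authors' fold enrichment at its summit, which describes that peak within its own list; values without a library's name follow the order CPN 1, CPN 2, CSMN. CSMN was a single library, so nothing was tested between the cell types, and the difference between CPN 1 and CPN 2 was the only measure of spread.

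Slits are secreted proteins that repel growing axons and neurites that carry Robo receptors, which are transmembrane proteins of the immunoglobulin family. In the forebrain, Slit2 made by midline glia helps to steer callosal axons, and Slit and Robo signalling also acts on the paths of other cortical axons. The srGAPs bind the cytoplasmic part of Robo receptors and bend membranes through an F-BAR domain. Slit2 and Slit3 also each carry a copy of the microRNA miR-218 within the gene.

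The sequences below show the microRNAs inside the Slit genes, with bases 2 to 8, the seed that pairs with target transcripts, in capitals. They are RefSeq mature sequences on GRCm38.p6, the assembly named mm10, written 5′ to 3′. Mir218-1 lies at chr5:48223942-48224051 on the plus strand within Slit2, and Mir218-2 at chr11:35616816-35616925 on the plus strand within Slit3. Both copies give the same 5p product, so they share that seed, while the 3p products differ.
miR-218-5p (Mir218-1 and Mir218-2): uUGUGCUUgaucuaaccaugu
miR-218-1-3p (Mir218-1): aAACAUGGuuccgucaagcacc
miR-218-2-3p (Mir218-2): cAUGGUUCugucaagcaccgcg

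The next sequences are the 250 bases before the annotated starts of the Slit and Robo genes whose start regions are compared below, from the RefSeq promoter table on GRCm38.p6, each on the strand of its gene and 5′ to 3′. Capitals mark the GC box, GGGCGG on either strand, a motif of many promoters. Slit2 is shown because its start region ranked higher in CSMN than in both CPN libraries, Slit3 because its start region did not, and Robo1 and the 3 Robo2 starts because the open regions between them differed.
Slit2, start chr5:47983155, plus strand: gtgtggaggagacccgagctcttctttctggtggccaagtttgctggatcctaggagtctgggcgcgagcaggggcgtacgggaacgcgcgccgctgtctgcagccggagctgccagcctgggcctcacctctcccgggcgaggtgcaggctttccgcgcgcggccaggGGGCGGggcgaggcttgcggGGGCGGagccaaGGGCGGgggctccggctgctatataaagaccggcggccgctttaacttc
Slit3, start chr11:35121456, plus strand: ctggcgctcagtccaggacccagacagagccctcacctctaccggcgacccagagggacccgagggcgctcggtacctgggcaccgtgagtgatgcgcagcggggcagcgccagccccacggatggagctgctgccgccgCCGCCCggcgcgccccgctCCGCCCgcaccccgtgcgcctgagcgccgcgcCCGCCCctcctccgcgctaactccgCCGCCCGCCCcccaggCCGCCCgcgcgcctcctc
Robo1, start chr16:72663149, plus strand: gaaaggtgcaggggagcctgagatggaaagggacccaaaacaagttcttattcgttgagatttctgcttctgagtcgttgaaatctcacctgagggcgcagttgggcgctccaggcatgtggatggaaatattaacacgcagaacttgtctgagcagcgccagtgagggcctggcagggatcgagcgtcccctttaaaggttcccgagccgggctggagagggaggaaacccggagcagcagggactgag
Robo2, the first start, chr16:75447293, minus strand: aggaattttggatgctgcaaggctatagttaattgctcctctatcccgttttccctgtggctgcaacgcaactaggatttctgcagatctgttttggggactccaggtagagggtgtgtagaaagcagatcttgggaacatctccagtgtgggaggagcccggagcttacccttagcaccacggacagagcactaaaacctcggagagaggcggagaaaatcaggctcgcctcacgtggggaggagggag
Robo2, the second start, chr16:75092770, minus strand: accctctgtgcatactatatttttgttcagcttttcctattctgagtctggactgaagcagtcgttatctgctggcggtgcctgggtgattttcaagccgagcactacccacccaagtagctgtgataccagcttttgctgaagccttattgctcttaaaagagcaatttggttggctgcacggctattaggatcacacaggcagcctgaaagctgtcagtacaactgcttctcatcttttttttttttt
Robo2, the third start, chr16:74411825, minus strand: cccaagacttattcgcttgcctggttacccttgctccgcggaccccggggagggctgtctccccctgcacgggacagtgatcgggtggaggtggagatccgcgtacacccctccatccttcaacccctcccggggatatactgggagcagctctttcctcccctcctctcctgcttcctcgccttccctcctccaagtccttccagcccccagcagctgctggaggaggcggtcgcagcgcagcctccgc

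The GC box occurred 3 times before the Slit2 start and 6 times before the Slit3 start, where 1 pair of matches overlapped, and 0 times before the Robo1 start or any of the 3 Robo2 starts. Over all members with a listed promoter it was present in 6 of 10 promoters, against 42.6% of 21263 promoters of protein-coding genes. The Slit3 stretch was 78.8% G and C with 35 CpG dinucleotides and the Slit2 stretch 69.6% with 25, while the second Robo2 start had 44.8% and 4, and the median of coding promoters was 55.6% and 10. TATAAA was found on either strand of 2 member promoters, Slit2 at 28 to 23 bases before the start and Srgap3 at 72 to 67, against 11.6% of coding promoters. Each of 2 Robo2 starts held an E-box, CACGTG at 18 to 13 bases before the first start (6.63% of coding promoters) and CAGCTG at 37 to 32 bases before the third (12.1%). CCAAT was found before Srgap2 alone (35.4% of coding promoters), and TGACGTCA (1.92%) and the core motif of the factor NRF1 (5.18%) were found before 0 of the 10. Both strands were searched, no matches of different motifs overlapped, and a match describes the letters of this window only.

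The deposited lists held 134018 peaks in CPN 1, 158779 in CPN 2 and 98067 in CSMN, with median folds of 3.82, 3.68 and 2.86. The sources used here give no read totals, so depth is unknown, and the length of a list cannot be told apart from the depth of its library. Labels were checked on marker genes, which did not separate the cell types as labelled. The start of Fezf2, a regulator of corticospinal identity, was open in all 3 libraries. The listed start of Bcl11b, another such regulator, was in a peak of 0 libraries. Listed starts were open in all 3 libraries at 2 of 3 CSMN markers and 3 of 3 CPN markers. The 5 CSMN markers held 33 CPN-only and 9 CSMN-only regions and the 5 CPN markers 30 and 12. CSMN-only regions were thus 21.4% of these classes at CSMN markers and 28.6% at CPN markers, against 32.5% over coding genes. Other cell types' markers also held open regions, with 9 CPN-only and 0 CSMN-only regions at 4 astrocyte genes, 24 and 5 at 4 oligodendrocyte lineage genes, 2 and 1 at 3 microglial genes and 11 and 4 at 4 endothelial genes. The listed start was open in all 3 libraries for 2 of 3 astrocyte, 1 of 2 oligodendrocyte lineage, 1 of 2 microglial and 2 of 2 endothelial genes, and the part of such cells in the regions below was not tested.

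At the 9 Slit, Robo and srGAP genes, 160 of 511 regions (31.3%, Wilson 95% interval 27.4% to 35.5%) had a peak in all 3 libraries, against 32.4% of the 134402 regions at all 21887 protein-coding genes. CPN-only regions, called in CPN 1 and in CPN 2 but absent from the CSMN list, numbered 106 (20.7%), against 19.5% over coding genes. CSMN-only regions numbered 59 (11.5%), against 9.41%. The remaining regions were 60 in CPN 1 alone (13.2% over coding genes), 103 in CPN 2 alone (21.5%), 15 in CPN 1 and CSMN (1.86%) and 8 in CPN 2 and CSMN (2.16%). The makeup of the 9 genes pooled was thus near that of coding genes.

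CSMN-only regions were 35.8% of CSMN-only plus CPN-only regions at the 9 genes (28.8% to 43.3%), against 32.5% over coding genes, and the interval covers counting error only. That balance followed the length and threshold of the lists. With each list cut to 98067 peaks the members held 138 shared, 57 CPN-only and 86 CSMN-only regions, or 37.4%, 15.4% and 23.3% of 369, against 42.6%, 16.2% and 18.7% over coding genes. The CSMN-only share then was 60.1%, against 53.7%. With a −log10 q of at least 5 they held 108, 93 and 8, or 36.4%, 31.3% and 2.69% of 297, against 41.2%, 28.8% and 2.62%, and the share was 7.92%, against 8.34%. The side with more regions thus depended on how the lists were cut, at the members as over coding genes. A cut also moved regions between classes, because a peak below it was dropped. Of the 160 regions shared in the full lists, 30 became CPN-only at that −log10 q threshold. With lists of equal length 14 of the 160 became CSMN-only. These moves were counted at the members alone, so they cannot be called particular to them.

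**Figure D1:**
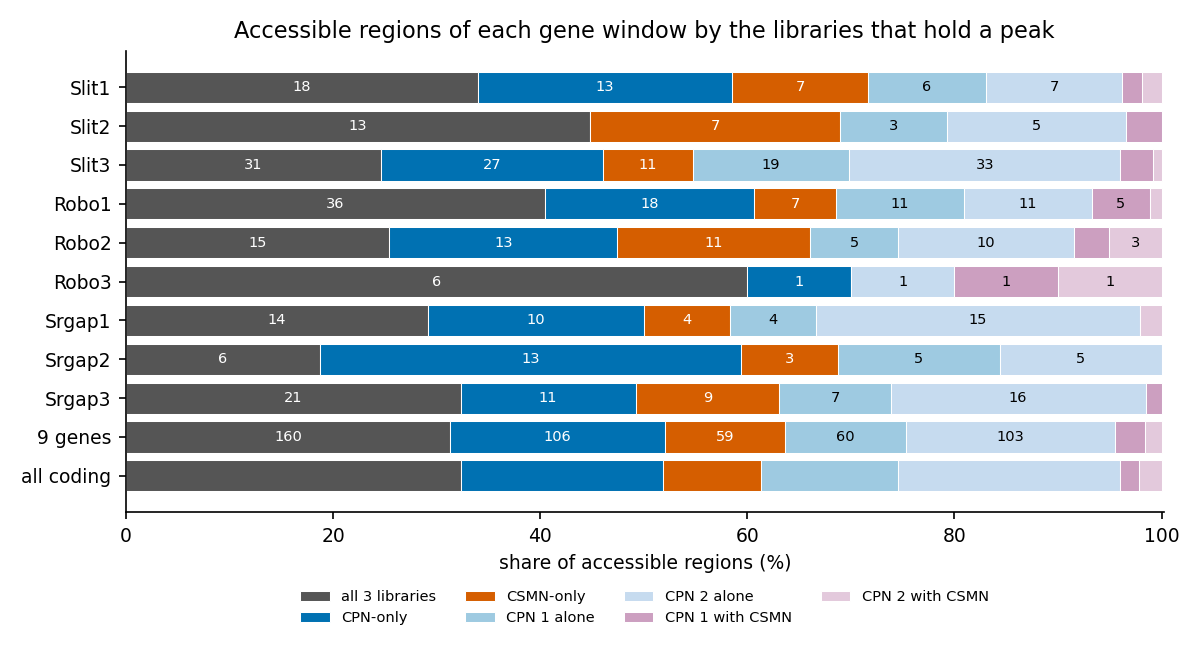
Share of the accessible regions of each gene window (horizontal axis, %) in each class of libraries, with the number of regions printed in the wider segments, for the 9 genes, their sum and all protein-coding genes. Slit2 has 7 CSMN-only and 0 CPN-only regions, while the other 8 genes have more CPN-only than CSMN-only regions.

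The 9 genes differed in how densely they were covered. Slit1 held 31.3 regions per 100 kb of its window, Robo3 26.7, Srgap3 26.0 and Slit3 20.8, while Srgap1 held 16.7, Srgap2 12.2, Robo1 8.56, Slit2 8.37 and Robo2 3.74, against 10.4 over coding genes. Robo1 and Robo2 are the longest members, at 1020 kb and 1560 kb, and Robo3 the shortest, at 17.4 kb. In all, 490 of the 511 regions lay in a gene body and 21 in a flank, and 8 lay in another coding gene of the window (Lcor beside Slit1, Robo4 beside Robo3, Fam72a or Ikbke beside Srgap2). Exons and introns were not distinguished, since the gene table used holds gene ends alone.

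The classes also differed in strength. Regions of all 3 libraries had median folds of 5.50 (CPN 1), 5.68 (CPN 2) and 3.38 (CSMN) at the members, and 6.65, 6.85 and 3.74 over coding genes. The 106 CPN-only regions had median folds of 3.45 and 3.62, and 63 of them had a −log10 q of at least 5 in both CPN lists. The 59 CSMN-only regions were weak throughout, with folds from 1.97 to 3.21, a median of 2.43 and a −log10 q of at least 5 in 5 of them (8.47%, against 11.0% over coding genes). A CPN peak lay within 500 bp of 11 of these 59 regions (18.6%, against 21.0% over coding genes).

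To compare strength between lists, the 62435 regions of the genome with a peak in all 3 libraries were ranked by fold within each library, so that a percentile of 90 means a fold above 90% of that same set. Among the 160 such regions at the members, the CSMN percentile lay at least 20 points below both CPN percentiles at 20 (12.5%, against 7.54% over coding genes) and at least 20 points above both at 21 (13.1%, against 6.30%). With CPN 1 as the odd library the same counts were 2 and 1 (1.25% and 0.625%, against 0.614% and 0.65% over coding genes). With CPN 2 they were 0 and 0, against 0.85% and 0.846%, so these counts were near the shares of coding genes. The median distance of CSMN from the CPN mean was 12.6 points, against 4.29 points between CPN 1 and CPN 2, where coding genes gave 8.25 and 4.70. CSMN had the lowest of the 3 percentiles at 61 regions and the highest at 81, against 40.1% and 42.3% over coding genes.

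The shared regions of the members were thus ordered less alike between CSMN and CPN than between the CPN libraries. At 10 points the counts were 37 lower and 42 higher (23.1% and 26.2%, against 16.5% and 16.4% over coding genes), and at 30 points 5 and 5 (3.12% each, against 3.16% and 2.01%). Ranked by −log10 p at 20 points they were 13 and 18 (8.12% and 11.2%, against 7.76% and 6.12%). Calls higher in CSMN were therefore above the share of coding genes at 10 and 20 points and by −log10 p. At 30 points each direction rested on 5 regions, too few to read a direction. Calls lower in CSMN were near the share of coding genes at 30 points and by −log10 p. The difference from coding genes was not tested.

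**Figure D2:**
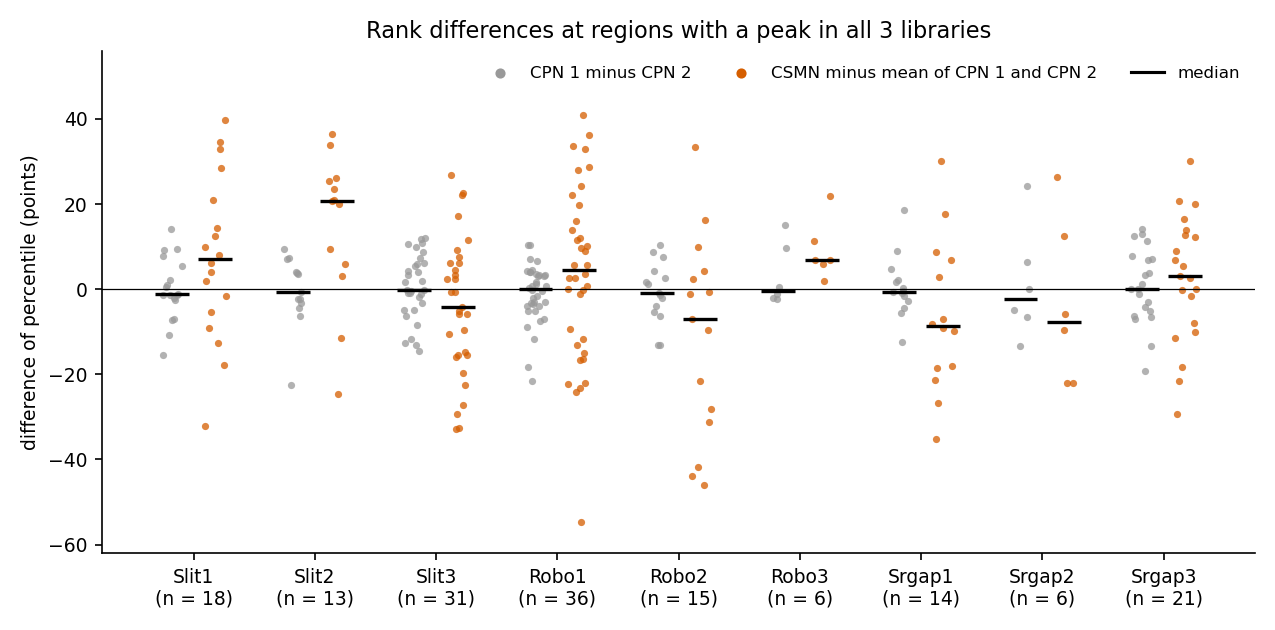
Difference of percentile (vertical axis, points) at regions with a peak in all 3 libraries, by gene, with 1 point per region and a bar at the median; grey points are CPN 1 minus CPN 2 and orange points CSMN minus the mean of CPN 1 and CPN 2. The orange median of Slit2 lies at 20.7 points and that of Srgap1 at -8.69, while all grey medians lie within 3 points of 0.

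Every listed promoter window of the members, from 250 bases before a start to 50 after it, touched open chromatin in both cell types. All 10 windows, covering 8 of the 9 genes, touched a region of all 3 libraries, against 61.3% of coding promoters. At Robo3 the region ended 24 bp from the start on the transcribed side, so the start itself lay outside it. Slit1 had no entry in the promoter table. Its strongest region, chr19:41745716-41746890, lay 385 bp inside the higher end of the gene and had folds of 11.5 (CPN 1), 11.6 (CPN 2) and 5.20 (CSMN). Those folds stood at percentiles 80.3, 79.4 and 70.8, so this end was open in each library and somewhat lower in the CSMN order.

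**Figure D3:**
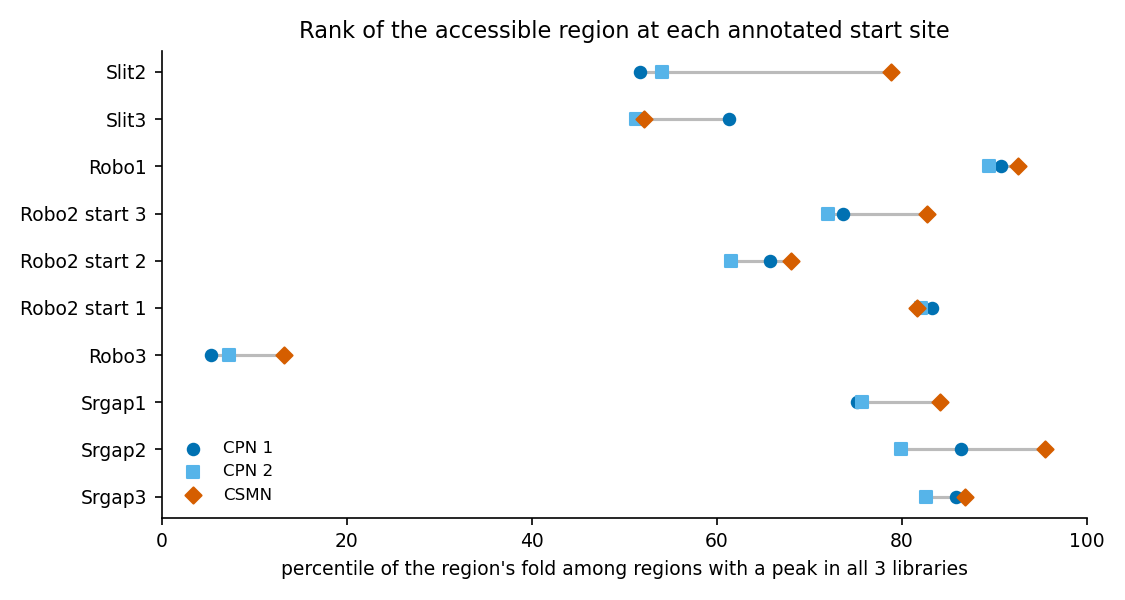
Percentile of the fold of the region at each annotated start (horizontal axis, among the 62435 regions with a peak in all 3 libraries), with 1 marker per library. At Slit2 the CSMN marker lies more than 20 points to the right of both CPN markers, Robo3 lies at the weak end in each library, and the 3 Robo2 starts lie between 61.5 and 83.3.

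Among the ligands, Slit2 stood apart from the other members in class and in rank. Slit2 (chr5:47981291-48307735), the ligand with the best known role at the forebrain midline, held 29 regions: 13 in all 3 libraries, 7 CSMN-only, 0 CPN-only, 3 in CPN 1 alone, 5 in CPN 2 alone and 1 in CPN 1 and CSMN. Of the 1583 coding genes with at least 7 regions in the CPN-only and CSMN-only classes together, 44 (2.78%) likewise had 0 CPN-only regions, a comparison chosen after the counts of Slit2 were seen. The CSMN-only share of 100% rests on 7 regions, with a Wilson interval of 64.6% to 100%.

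The 7 CSMN-only regions of Slit2 were weak peaks, and 4 of them had the same fold of 2.52 with a −log10 q of 3.55. The strongest, chr5:48050935-48051194, had a CSMN fold of 3.21 and a −log10 q of 7.43, and 3.79% of CSMN-only regions at coding genes had a higher fold. A peak of CPN 2 alone, chr5:48050810-48050925 with a fold of 3.07, lay directly beside it. With a −log10 q of at least 5 the CSMN-only count of Slit2 was 2 and the CPN-only count 0, and with lists of equal length the counts were 7 and 0. Joining peaks within 500 bp, an alternative added after seeing the data, gave 5 CSMN-only and 1 CPN-only. A CPN library left out relaxed the CPN-only class to a single list, and Slit2 then held 8 CSMN-only and 5 CPN-only regions without CPN 1, and 7 and 3 without CPN 2.

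The shared regions of Slit2 were also placed higher in the CSMN order. CSMN had the highest of the 3 percentiles at 11 of 13 regions (42.3% of regions at coding genes), and the median difference of CSMN from the CPN mean was 20.7 points, with a range from -24.5 to 36.4. Between CPN 1 and CPN 2 the median was -0.536 points, from -22.4 to 9.43. Of 761 coding genes with at least 10 shared regions, 2 (0.263%) had a higher median than Slit2, and 9 (1.18%) when regions were ranked by −log10 p, where the median of Slit2 was 18.8 points.

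The region over the Slit2 start, chr5:47982759-47985560, had folds of 6.48 (CPN 1), 6.93 (CPN 2) and 6.37 (CSMN), at percentiles 51.7, 54.1 and 78.8. Among the shared regions it was the only member start at which CSMN lay at least 20 points from both CPN libraries. Among regions at coding promoters alone it stood at 15.2, 16.8 and 35.6, under that mark, and the start of Srgap2 passed it instead. Its neighbour chr5:47985839-47986569 had percentiles of 22.1, 18.5 and 45.5. The widest gap in the gene, 36.4 points, was at chr5:48058690-48058929, with percentiles of 17.5, 23.9 and 57.0. The reverse was seen at chr5:48122713-48123196, with folds of 10.3, 11.2 and 3.73 at percentiles 75.9, 78.3 and 52.6, and to a lesser extent at chr5:48038121-48038358, at 80.1, 73.1 and 65.1. The CPN-leading regions of Slit2 were thus among its strongest CPN peaks, while most regions that led in CSMN were weak or middling in CPN. Both were picked by the difference between CSMN and CPN percentiles, a choice that by itself favours this pattern.

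**Figure D4:**
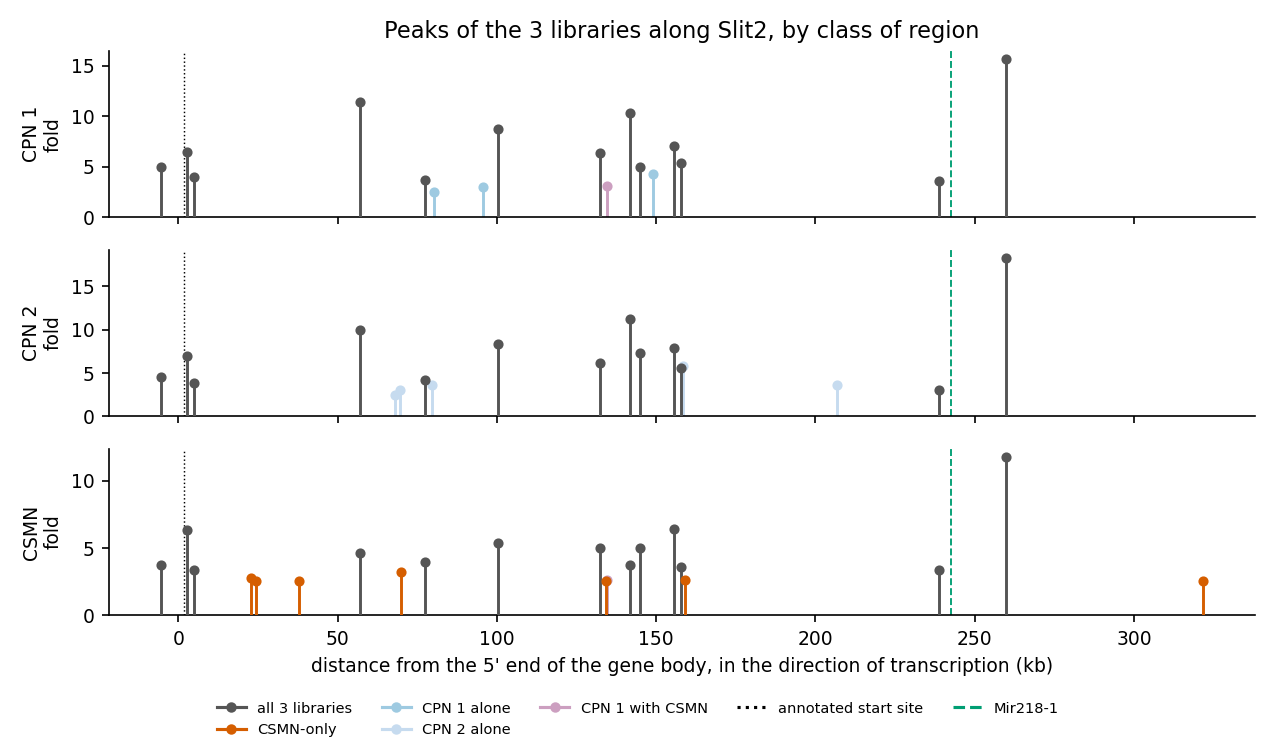
Fold enrichment (vertical axis, linear and scaled for each library) of every region along Slit2 against distance from the 5′ end of the gene body in kb, with colours for the class; the dotted line marks the annotated start and the dashed line Mir218-1. The 7 CSMN-only regions are spread along the gene at folds between 2.52 and 3.21, and the tallest region in each library lies just beyond Mir218-1.

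The miR-218 copy in Slit2 had open chromatin on both sides in each library. The nearest region, chr5:48219745-48220177, ended 3765 bp upstream of Mir218-1 and had folds of 3.59 (CPN 1), 3.07 (CPN 2) and 3.38 (CSMN). These stood at percentiles 15.8, 6.38 and 44.9, a higher place in CSMN. The next, chr5:48240759-48241216, lay 16708 bp downstream and was the strongest region of Slit2 in every library, with folds of 15.7, 18.3 and 11.8 at percentiles 90.0, 93.3 and 94.8, which differed little. The nearest region to Mir218-2 in Slit3, chr11:35614651-35614830, lay 1986 bp upstream, was CPN-only and had folds of 2.54 and 2.87. Next came chr11:35612736-35612933 in CPN 1 alone, 3883 bp upstream, and chr11:35612080-35612496 in CPN 1 and CSMN, 4320 bp upstream, with folds of 3.45 and 2.39. The nearest region of all 3 libraries, chr11:35624532-35625276, lay 7607 bp downstream, had folds of 4.93, 4.70 and 2.41 at percentiles 34.7, 30.7 and 10.1, and was called lower in CSMN. A peak near a microRNA shows open DNA and does not say whether the host gene or the microRNA is transcribed.

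Slit3 (chr11:35121456-35708507) held the most regions of any member, 126, of which 31 were in all 3 libraries, 27 CPN-only and 11 CSMN-only, a share of 28.9%. Its start region had folds of 7.64 (CPN 1), 6.58 (CPN 2) and 3.73 (CSMN), at percentiles 61.3, 51.3 and 52.1, so CSMN lay within the spread of the CPN libraries there. Its strongest region, chr11:35587086-35587757, had folds of 14.1, 15.4 and 4.91, at percentiles 87.1, 88.9 and 68.3. Of its shared regions 5 were called lower in CSMN and 1 higher, where most calls at Slit2 were higher. The median difference was -4.18 points, and 77.8% of the 761 genes had a higher median. Ranked by −log10 p it was -4.31 points, and 73.2% had a higher one. The widest fall was at chr11:35440026-35440726, with folds of 8.21, 9.53 and 3.04 at percentiles 65.0, 71.2 and 35.2. Its strongest CPN-only regions were chr11:35561750-35562101, with folds of 6.73 and 7.41, and chr11:35406000-35406889, with 4.79 and 5.14.

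Slit1 (chr19:41597824-41747275), the ligand largely restricted to the nervous system, held 53 regions: 18 in all 3 libraries, 13 CPN-only and 7 CSMN-only. Its CPN-only regions were led by chr19:41656065-41656250, with folds of 5.34 in CPN 1 and 5.80 in CPN 2, and chr19:41660408-41660805, with 5.45 and 5.29. The strongest CSMN-only region, chr19:41687711-41687857, had a fold of 2.65 and a −log10 q of 5.03. In rank Slit1 moved in the direction of Slit2, with 4 regions called higher in CSMN, 1 lower and a median of 7.06 points, or 1.70 points by −log10 p. The widest gap was at chr19:41743250-41743799, near the open end of the gene, with folds of 3.26, 3.04 and 3.53 at percentiles 11.2, 5.74 and 48.2. The reverse was seen at chr19:41697263-41697888, with folds of 6.42, 7.94 and 2.74 at percentiles 51.3, 62.0 and 24.4.

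Among the receptors, Robo2 held the strongest CPN-only region. Robo2 (chr16:73891976-75447443, minus strand) is a main Slit receptor of forebrain axons, and its window held 59 regions: 15 in all 3 libraries, 13 CPN-only and 11 CSMN-only. The CPN-only region chr16:74089896-74090314 had folds of 12.5 in CPN 1 and 13.9 in CPN 2, and 0.0457% of CPN-only regions at coding genes were stronger by the lower of their CPN folds. The next, chr16:74282636-74282857, had 9.25 and 7.31. The strongest CSMN-only region of Robo2, chr16:74468090-74468384, had a fold of 2.86 in the CSMN list and a −log10 q of 5.38, and 7.94% of CSMN-only regions at coding genes had a higher fold.

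Some shared regions of Robo2 showed wide downward shifts. Over its 15 shared regions the median difference of CSMN from the CPN mean was -6.96 points, and 88.2% of the 761 genes had a higher median. Ranked by −log10 p the median was -5.15 points, and 77.4% of the genes had a higher one. The regions named here are thus the extremes of a smaller gene-wide difference. The region with the highest median percentile over the libraries, chr16:74597846-74598484, had folds of 15.7 (CPN 1), 14.6 (CPN 2) and 3.47 (CSMN), at percentiles 90.0, 87.3 and 47.0. At chr16:74739341-74740108 the folds were 7.86, 6.72 and 2.43, at percentiles 62.8, 52.4 and 11.6. At chr16:74225467-74226172 they were 9.60, 10.1 and 2.86, at 72.8, 73.7 and 29.3. In these 3 regions CSMN lay far below both CPN libraries, with differences from the CPN mean between -46.0 and -41.7 points, while CPN 1 and CPN 2 lay within 10.4 points of each other. In all 5 regions of Robo2 were called lower and 1 higher; the latter, chr16:74412611-74413274 beside the third start, had percentiles of 37.3, 50.4 and 77.2.

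The 3 annotated starts of Robo2 were open in each library. The first, at the 5′ end of the gene, had folds of 12.5 (CPN 1), 12.4 (CPN 2) and 6.94 (CSMN), at percentiles 83.3, 82.1 and 81.7. The second had folds of 8.33, 7.89 and 4.86, at 65.8, 61.5 and 68.0. The third had 9.80, 9.69 and 7.20, at 73.7, 72.0 and 82.7. The library percentiles lay within 2 points at the first start, and CSMN led by less than the 20-point mark at the third.

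The classes of region were unevenly placed along Robo2, as a division of the gene at its starts showed, a division chosen after the positions were seen. From the first to the second start, a stretch of 355 kb, there were 9 regions, of which 0 were CPN-only and 4 CSMN-only. From the second to the third, 681 kb, 16 regions held 3 CPN-only and 5 CSMN-only. From the third start to the 3′ end, 520 kb, 33 regions held 10 CPN-only and 2 CSMN-only. The last stretch thus held 56.9% of the regions of the 3 stretches, 76.9% of the CPN-only and 18.2% of the CSMN-only regions, and the differences between these shares were not tested.

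**Figure D5:**
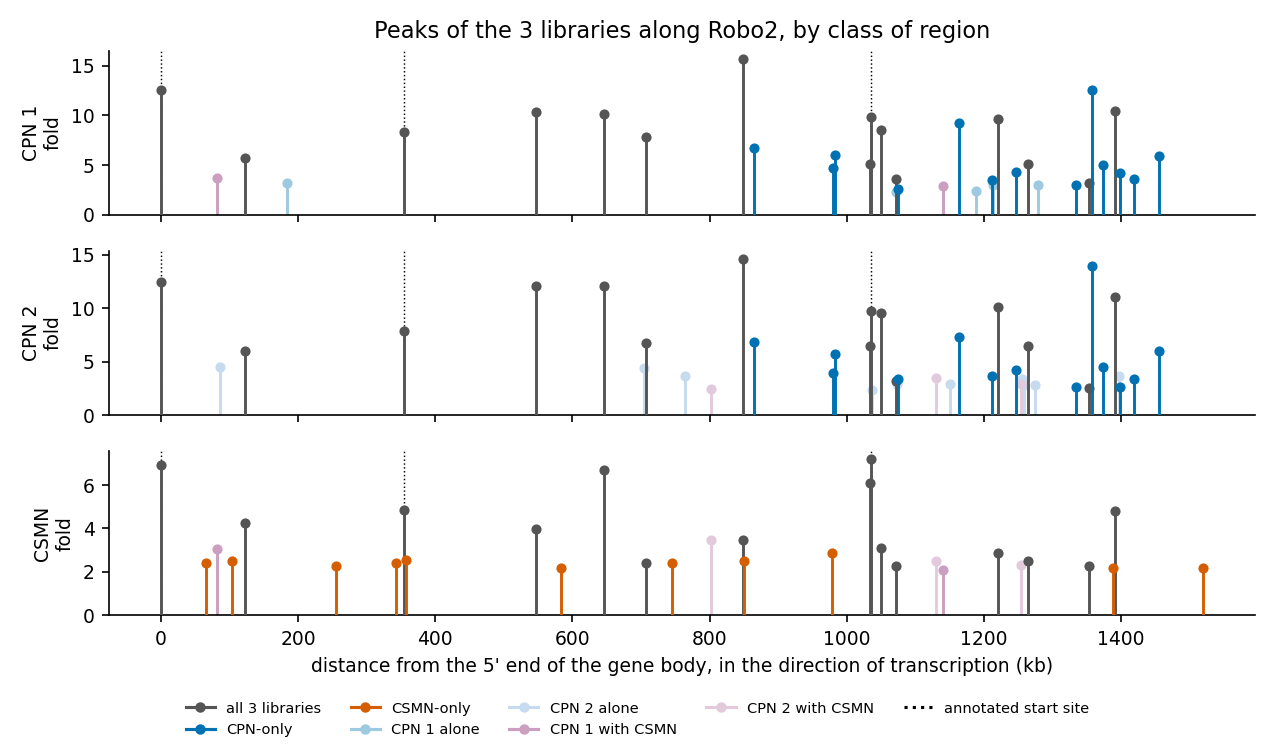
Fold enrichment (vertical axis, linear and scaled for each library) of every region along Robo2 against distance from the 5′ end of the gene body in kb, with colours for the class and dotted lines at the 3 annotated starts. CPN-only regions lie mainly beyond the third start, where the strongest reaches folds of 12.5 in CPN 1 and 13.9 in CPN 2, while CSMN-only regions lie mainly before it, at folds no higher than 2.86.

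Robo1 (chr16:72027518-73047491, plus strand), the partner of Robo2 in Slit signalling in the cortex, held 89 regions: 36 in all 3 libraries, 18 CPN-only and 7 CSMN-only. Its listed start, 636 kb inside the gene body, carried the region of the gene with the highest median percentile over the 3 libraries. The folds there were 16.1 (CPN 1), 15.7 (CPN 2) and 10.6 (CSMN) at percentiles 90.7, 89.4 and 92.6. In CPN 2 chr16:72222029-72222578 was stronger, with a fold of 16.8. The 5′ end of the gene body was open too, at chr16:72027476-72028331, with folds of 12.3, 12.8 and 7.95 at percentiles 82.8, 83.2 and 85.6. Both ends of the upstream stretch therefore ranked alike in the 3 libraries.

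The listed start of Robo1 divides the gene into a sparse and a dense stretch, with 5.35 regions per 100 kb before it and 14.3 after it. Between the 5′ end and the listed start, 34 regions held 5 CPN-only and 6 CSMN-only. From that start to the 3′ end, 384 kb, 55 regions held 13 CPN-only and 1 CSMN-only. The 3′ stretch held 61.8% of all regions, 72.2% of the CPN-only and 14.3% of the CSMN-only regions. This division too was chosen after the positions were seen, and the difference between the stretches was not tested. The strongest CPN-only regions fell on either side of the start: chr16:72615074-72615197 before it, with folds of 8.77 and 9.14, and chr16:72811067-72811228 after it, with 5.90 and 5.41. In CSMN the strongest region without a CPN peak, chr16:72451825-72451953, had a fold of 2.78.

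Shared regions of Robo1 moved in both directions, with 7 called higher in CSMN and 4 lower. The widest fall of any member was at chr16:72794726-72795543, with folds of 9.83 (CPN 1), 9.93 (CPN 2) and 2.60 (CSMN), at percentiles 73.9, 73.1 and 18.9. The widest rise was at chr16:72959018-72959642, with folds of 4.05, 3.94 and 4.34 at percentiles 22.5, 19.4 and 62.0. CPN 1 and CPN 2 lay within 4 points of each other at both. The other regions called lower were chr16:72887829-72888465, chr16:72913153-72913590 and chr16:72937205-72937612, which all lie in the 3′ stretch and had CPN percentiles from 48.4 to 68.0 and CSMN percentiles from 26.0 to 44.9. The median over the 36 regions was 4.57 points.

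Robo3 (chr9:37416045-37433436, minus strand), the divergent receptor that lets commissural axons cross the midline and binds NELL2, differed little between libraries. Of its 10 regions 6 were in all 3 libraries, 1 was CPN-only and 0 were CSMN-only. The region at its start, chr9:37432830-37433151, ended just inside the transcribed side of the start and was among the weakest shared regions of the genome, with folds of 2.87 (CPN 1), 3.15 (CPN 2) and 2.46 (CSMN) at percentiles 5.33, 7.34 and 13.2. Among regions at coding promoters those folds stood at percentiles 1.02, 1.31 and 2.09. The strongest region, chr9:37430641-37430990, lay 2.19 kb from the start and had folds of 13.9, 14.0 and 8.79 at percentiles 86.5, 86.1 and 88.3. The CPN-only region, chr9:37432160-37432304, lay between them, with folds of 4.52 and 5.78. No Robo3 region was called higher or lower in CSMN, although CSMN had the highest percentile at 5 of 6. Robo4, the endothelial receptor whose gene shares the window, had 7 regions in its own window, 3 of all 3 libraries, 2 CPN-only and 0 CSMN-only, and its listed start was open in CPN 1 and CPN 2 and not in CSMN.

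The srGAP genes held 41 regions of all 3 libraries, 34 CPN-only and 16 CSMN-only, and their listed starts were open in each library. Among regions at coding promoters the start of Srgap1 stood at percentiles 32.4, 34.3 and 45.7, that of Srgap2 at 51.0, 39.7 and 81.2 and that of Srgap3 at 49.8, 44.5 and 51.9. Srgap2 (chr1:131285251-131527531, minus strand), whose protein promotes neurite branching and the maturation of dendritic spines, had 32 regions, 6 in all 3 libraries, 13 CPN-only and 3 CSMN-only. Its CSMN-only share of 18.8% (6.59% to 43.0%) was the lowest of the 8 genes with a share over at least 7 regions. The region over its start had folds of 13.8 (CPN 1), 11.7 (CPN 2) and 12.3 (CSMN), at percentiles 86.4, 79.9 and 95.5, and also overlaps Fam72a, so the start of Srgap2 cannot be told apart from that gene there. The strongest CPN-only regions were chr1:131431871-131432282, with folds of 8.46 and 9.38, exceeded by 0.658% of CPN-only regions at coding genes, and chr1:131473573-131474084, with 5.90 and 7.01. Its CSMN-only regions reached a fold of 2.43 at most.

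Within Srgap2 the shared region with the highest median percentile over the 3 libraries was chr1:131351404-131352020. It had folds of 15.4 (CPN 1), 19.0 (CPN 2) and 7.08 (CSMN) at percentiles 89.4, 94.2 and 82.2. In CSMN the start region was stronger, with a fold of 12.3 at percentile 95.5. Only 1 region was called lower in CSMN and 1 higher. The one called higher, chr1:131427307-131427835, had percentiles of 29.8, 36.4 and 59.6, and the lower, chr1:131378400-131379100, had 40.9, 40.9 and 18.9.

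Srgap1 (chr10:121780991-122047911, minus strand), a GTPase-activating protein that acts on Cdc42 downstream of Robo1, held 48 regions, 14 in all 3 libraries, 10 CPN-only and 4 CSMN-only. Its start region had folds of 10.1 (CPN 1), 10.6 (CPN 2) and 7.54 (CSMN), at percentiles 75.2, 75.7 and 84.1. Over the 14 shared regions, the start included, CSMN had the lowest percentile at 8 and the highest at 5. The median difference of CSMN from the CPN mean was -8.69 points, and 91.6% of the 761 genes had a higher median. Ranked by −log10 p the median was -6.62 points, and 82.5% of the genes had a higher one. The widest fall was at chr10:121926096-121926532, with folds of 5.78, 5.11 and 2.26 at percentiles 44.8, 35.8 and 5.10, and at chr10:122018522-122019139 the folds were 7.86, 7.83 and 3.04 at 62.7, 61.1 and 35.2. The reverse held at chr10:121885378-121885871, at percentiles 4.72, 7.51 and 36.1. The strongest CPN-only region, chr10:122025285-122025572, had folds of 7.52 and 4.52, a wide spread between the CPN libraries, followed by chr10:121882541-121882749 with 3.96 and 3.99.

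Srgap3 (chr6:112717971-112947505, minus strand), also known as WRP and an inhibitor of Rac1, held 65 regions, 21 in all 3 libraries, 11 CPN-only and 9 CSMN-only, so its CSMN-only share of 45.0% was near that of Robo2, 45.8% (27.9% to 64.9%). Its start region had folds of 13.6 (CPN 1), 12.6 (CPN 2) and 8.30 (CSMN), at percentiles 85.9, 82.6 and 86.8, which differed little. The strongest CPN-only region, chr6:112823008-112823562, had folds of 6.18 and 5.39, and the strongest CSMN-only region, chr6:112939515-112939723, a fold of 2.64. With a −log10 q of at least 5 Srgap3 held 11 CPN-only and 0 CSMN-only regions, and with lists of equal length 4 and 14. These counts include regions shared in the full lists, of which 6 became CPN-only at that threshold and 3 became CSMN-only at equal length. In rank 2 regions were called higher, chr6:112788509-112789138 at percentiles 5.21, 5.19 and 26.0 and chr6:112833605-112834151 at 18.0, 5.59 and 41.8, and chr6:112900406-112900779 was called lower at 38.8, 45.9 and 13.0.

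By role, the ligand genes held 40 CPN-only and 25 CSMN-only regions, the receptor genes 32 and 18 and the srGAP genes 34 and 16, with CSMN-only shares of 38.5%, 36.0% and 32.0%. Their Wilson intervals were 27.6% to 50.6%, 24.1% to 49.9% and 20.8% to 45.8%, which overlapped widely. More CPN-only than CSMN-only regions were found at 8 of the 9 genes and fewer at Slit2, the smallest member count of regions being 10. Of 4457 coding genes with at least 10 regions, 71.8% had more CPN-only, 17.7% more CSMN-only and 10.5% equal numbers. With lists of equal length 3 members had more CPN-only regions (Robo3, Srgap1 and Srgap2) and 6 more CSMN-only, and over those coding genes the shares were 39.9% and 43.8%.

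A list of 33 other genes of the pathway, from co-receptors and heparan sulfate proteins to kinases and adaptors, held 556 regions, of which 169 were in all 3 libraries, 141 CPN-only and 39 CSMN-only. These were 30.4%, 25.4% and 7.01%, against 32.4%, 19.5% and 9.41% over coding genes, and the CSMN-only share was 21.7%, against 32.5%. More CPN-only regions were found at 26 of the 33 genes, more CSMN-only at 3 and equal numbers at 4. Of 18794 coding genes with a region, 44.2% had more CPN-only and 16.9% more CSMN-only regions. Among coding genes with at least 10 regions these shares were 71.8% and 17.7%. With a −log10 q of at least 5 the list held 116 CPN-only and 8 CSMN-only regions, a share of 6.45% against 8.34%. With lists of equal length the list held 80 CPN-only and 57 CSMN-only regions, a share of 41.6% against 53.7%. More CPN-only regions were then found at 16 genes and more CSMN-only at 8. Over coding genes with at least 10 regions, a limit not set on this list, the shares were 39.9% and 43.8%. The largest difference was at Ntn1, which encodes the attractant netrin-1, with 11 CPN-only and 0 CSMN-only regions. It was followed by a tie of 4 genes: Nell2, the Robo3 ligand, with 11 and 1, Abl1, a kinase that binds Robo, with 11 and 1, Cables1, an adaptor of Abl, with 11 and 1, and Ext1, an enzyme of heparan sulfate synthesis, with 17 and 7. The 3 genes with more CSMN-only regions were Myo9b, with 3 CPN-only and 6 CSMN-only, Gpc1, with 1 and 2, and Cxcl12, with 0 and 1. Of 20 genes with an entry, 19 had a listed start open in all 3 libraries, Robo4 being the exception, against 61.3% of coding promoters. The first count is of genes, some with several listed starts, and the second is of single promoters.

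The coding genes whose makeup of region classes lay nearest to the 9 members pooled, among 1681 genes with at least 20 regions, were Mtss1, Klhl29 and Reep3, by the sum of absolute differences of class shares. For Mtss1 the sum was 6.46 points, with 14 regions of all 3 libraries, 9 CPN-only and 5 CSMN-only among 42. Klhl29 followed at 8.81 points and Reep3 at 8.89. The likeness is over 7 classes of the same 3 libraries, whose lists differ in length and whose depth is unknown.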

How the data were processed

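ATAC-seq peak lists of 3 libraries were used, 2 of CPN and 1 of CSMN, grouped by their labels. The build was mm10, and the tools listed, with no roles, were MACS2 2.2.7.1, bedtools 2.29.2 and BWA 0.7.17, per the submitters' processing notes. Read filters, duplicate removal, any shift for the transposase and the mode of peak calling are not given in the sources used here. Peak names in a deposited list carry 1 library's name, so calling by the authors was treated as separate for each library. Each deposited peak carries a score, a fold enrichment (ratio), the −log10 of its p and q values and the offset of its summit in bp. The score deposited with a peak was 10 times its −log10 q to within 1. The weakest deposited peak had a −log10 q of 1.31, 1.31 and 1.30 in the CPN 1, CPN 2 and CSMN lists.

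Gene windows, starts and microRNAs came from RefSeq tables of GRCm38.p6, the same build, and all 9 members and 33 pathway genes were matched by symbol. Peaks were merged by overlap of at least 1 bp with pandas 2.3.3 and numpy 2.4.6 in Python 3.11.15, a procedure tested on 20000 simulated sites, all of which were given their class. A region's fold in a library is that of its strongest peak there. Wilson 95% intervals were given for shares, for counting error alone. The regions named for each gene are the region at its start or end and the 2 CPN-only regions with the highest lower CPN fold. Also named are the CSMN-only region with the highest fold and the shared region with the highest median percentile over the 3 libraries. The regions of Slit2, those near miR-218 and the widest rank differences were named after their values were seen. No p-value was computed, because CSMN had 1 library. Alternatives changed the overlap, the threshold, the list length, the window, the assignment, the libraries and the ranking. The members and lists were chosen with earlier results of these data known.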

Additional observations from a re-analysis of the deposited data

How the results depend on the processing

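The count of regions of all 3 libraries ranged from 108 to 160 over the alternatives that kept every library, within 1.5 times its value of 160. Regions of both remaining libraries numbered 169 when CPN 1 was left out and 175 when CPN 2 was left out. With a −log10 q of at least 5 the CSMN-only count was 8 and its share 7.92%, and with lists of equal length the CPN-only count was 57 and the share 60.1%, which turned the balance, as it did over coding genes. Leaving out a CPN library, which lets 1 list define the class, gave CPN-only counts of 166 to 216 and shares of 25.8% to 29.1%. Joining by overlap of at least 50% of the shorter peak, gene bodies alone, summits inside the window and joining within 500 bp kept every count within 1.5 times. Ranked by −log10 p, 13 regions were lower in CSMN and 18 higher; at 10 points the counts were 37 and 42, and at 30 points 5 and 5. Of 126 counts for single genes, 96 stayed within 1.5 times. Slit2 held more CSMN-only than CPN-only regions under all 8 alternatives, the added one included, and the 4 counts of the added alternative were chosen after seeing the data. No paired analysis was possible, because CSMN had 1 library and no label pairs a CPN library with it. The threshold of the lists limits the CSMN-only class most, since 5 of its 59 regions had a −log10 q of at least 5.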
